A study of Mus musculus with 16 samples.

Results

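Resting cardiac fibroblasts and fibroblasts that have been activated by injury or pressure overload are told apart by partly different transcripts. The 9 genes described here were listed by name for these 2 states. Tcf21, Pdgfra, Ddr2 and Thy1 mark the identity of resting fibroblasts, and Meox1, Cthrc1, Fap, Cilp and Scx mark activation. All 9 were found by symbol among the 55573 genes of the count table. RNA from the apex of the heart was sequenced in 16 male mice, 4 in each of 4 groups, 4 weeks after surgery. WT mice had received, as newborn pups, an AAV9 virus with the cardiomyocyte-specific cTNT promoter in front of GFP (AAV9-cTNT-GFP) or of the full-length mouse lncRNA Cardinal (AAV9-cTNT-CARDINAL). Mice with either virus underwent sham surgery or transverse aortic constriction (TAC), which narrows the aorta and loads the left ventricle with pressure. Groups are named by virus, AAV9-GFP or AAV9-CARDINAL, and by surgery, sham or TAC, and all mice carried a virus. The promoter drives the transgene in cardiomyocytes, so fibroblasts are not the cells in which the virus is meant to act. The labels do not say whether a library came from 1 heart or several. Each p-value of the main fit rests on the spread of libraries within groups, estimated over all 4 groups together.

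In the heart, fibroblasts build and turn over the extracellular matrix. Under pressure overload they take on an activated state in which matrix and matricellular genes are switched on, with TGF-β as a main inducing signal. Tcf21 encodes a basic helix-loop-helix transcription factor of the epicardial lineage that gives rise to cardiac fibroblasts. Pdgfra encodes a receptor for platelet-derived growth factors, Ddr2 a collagen receptor with tyrosine kinase activity, and Thy1 a glycoprotein of the surface of fibroblasts and several other cells. Meox1 encodes a homeobox transcription factor, and Scx, also called scleraxis, a basic helix-loop-helix factor first known from tendon. Fap encodes a surface protease, Cthrc1 a secreted protein with a collagen triple helix repeat, and Cilp a secreted matrix protein first found in cartilage that binds TGF-β.

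Basic helix-loop-helix factors such as TCF21 and SCX bind E-boxes, whose letters are CANNTG. This pattern, though not every single E-box, reads the same on both strands. RefSeq (GRCm38.p6) promoters were found for 4 of the 9 genes, Tcf21, Pdgfra, Ddr2 and Cilp. The bases upstream of the annotated start are shown for Cilp, which had the largest TAC response of the 9 genes, and for Tcf21, whose product belongs to the E-box binding class, with E-boxes in capitals. The Cilp stretch lies at chr9:65264930-65265179 on the plus strand and the Tcf21 stretch at chr10:22820175-22820393 on the minus strand.
Cilp: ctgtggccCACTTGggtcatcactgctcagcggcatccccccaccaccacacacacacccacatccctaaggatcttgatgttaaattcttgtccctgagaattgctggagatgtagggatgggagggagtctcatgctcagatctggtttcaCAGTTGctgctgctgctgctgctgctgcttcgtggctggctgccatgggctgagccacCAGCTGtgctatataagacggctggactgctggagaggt
Tcf21: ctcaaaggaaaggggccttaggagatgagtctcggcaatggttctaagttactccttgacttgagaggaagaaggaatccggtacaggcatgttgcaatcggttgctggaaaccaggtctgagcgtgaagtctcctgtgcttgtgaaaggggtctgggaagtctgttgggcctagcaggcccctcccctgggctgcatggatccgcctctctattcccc
The 250 bases of Cilp held 3 E-boxes and the 219 bases of Tcf21 held 0. Of 32851 RefSeq promoters, 66.2% held at least 1 E-box in a window of 250 bases and 62% in a window of 219 bases, so an E-box is common. A window of 250 bases held 1 E-box in Pdgfra and 0 in Ddr2. The Ddr2 window, at chr1:170088945-170089194, lies before a RefSeq start that is inside the annotated span of the gene, so it is not upstream of that span.

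The genes lie on several chromosomes of GRCm38 (GENCODE M21), and all 9 are protein coding. Tcf21 (ENSMUSG00000045680) spans chr10:22817281-22820174 on the minus strand and Pdgfra (ENSMUSG00000029231) spans chr5:75152292-75198215 on the plus strand. Ddr2 (ENSMUSG00000026674) is at chr1:169972307-170110762 on the minus strand and Thy1 (ENSMUSG00000032011) at chr9:44043384-44048579 on the plus strand. Meox1 (ENSMUSG00000001493) is at chr11:101877510-101894374 and Fap (ENSMUSG00000000392) at chr2:62500943-62574075, both on the minus strand. Cthrc1 (ENSMUSG00000054196) is at chr15:39076932-39087121, Scx (ENSMUSG00000034161) at chr15:76457452-76459458 and Cilp (ENSMUSG00000042254) at chr9:65265180-65280605, all on the plus strand. Of the exonic length of Pdgfra, 6.5% overlaps Gm42802, Gm42803 and Mir7025, and of that of Ddr2, 0.972% overlaps 3110045C21Rik. With no strand setting known, reads from those stretches cannot be assigned to a gene. Scx lies within the span of Bop1 on the other strand without sharing exonic bases. Of all 50-base stretches, 4.93% of those of Pdgfra, 1.12% of those of Ddr2 and 0.526% of those of Fap also occur in another annotated gene, and the other 6 genes had none.

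Totals were between 16441997 and 21904589 counts per mouse (median 21723766), and 30.3% to 34% of the counts of a mouse were mitochondrial. A level is given in CPM, the usual depth-scaled count, after TMM normalization of the library sizes. In this unit 3 counts, taken as the floor of detection, were worth between 0.126 and 0.195, and this floor covers counting error only. The mouse gene for Cardinal, Gm12295, was between 18.3 and 93.9 CPM in the 8 AAV9-CARDINAL hearts and between 3.42 and 7.24 CPM in the 8 AAV9-GFP hearts, so every mouse matched its virus label. AAV9-CARDINAL TAC replicate 1 stood apart in several values below. It held the 93.9 CPM of Gm12295, and results that rest on it are given with and without it. Replicate numbers are those in the sample titles, so that AAV9-GFP TAC held replicates 1, 3, 4 and 7, and AAV9-CARDINAL TAC replicates 1, 4, 5 and 6.

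Ddr2, Meox1, Thy1 and Pdgfra had the highest levels in sham hearts, and in TAC hearts that had received AAV9-GFP 2 activation genes, Meox1 and Cilp, stood above all identity genes. Levels of different genes are compared here only per kilobase of exonic length. In AAV9-GFP sham hearts, Ddr2 led with a level of 2.91 ± 0.230 CPM per kilobase (SD, n = 4), followed by Meox1 at 2.76 ± 0.561, Thy1 at 2.45 ± 0.357 and Pdgfra at 2.16 ± 0.154. Neighbors among these 4 differed by less than the sum of their SDs. Below a gap came Scx at 1.18 ± 0.365 and Tcf21 at 1.17 ± 0.164 CPM per kilobase, which did not differ beyond their spread. Cilp at 0.673 ± 0.0855 and Fap at 0.528 ± 0.0986 followed after another gap and also lay within their spread of each other, and Cthrc1 was at 0. In AAV9-CARDINAL sham hearts Meox1 led Ddr2, by less than their spread, and Tcf21 led Scx, also by less than their spread. The order was otherwise the same.

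After TAC with AAV9-GFP, Meox1 reached 9.28 ± 3.02 CPM per kilobase (SD, n = 4) and Cilp 8.28 ± 2.66, which did not differ from each other beyond their spread. Ddr2, at 3.20 ± 0.340 CPM per kilobase, was the highest identity gene, and the distance from Cilp to Ddr2 was larger than the sum of their SDs. Thy1 at 2.79, Pdgfra at 2.45, Scx at 2.13 and Tcf21 at 1.50 CPM per kilobase followed, and no neighbors from Ddr2 to Tcf21 differed beyond their spread. In AAV9-CARDINAL TAC hearts, Meox1 stood first with 5.27 ± 1.28 CPM per kilobase, above Ddr2 at 2.85 ± 0.176 by more than the sum of the SDs. Cilp was at 2.67 ± 1.86, within the spread of Ddr2, Thy1 and Pdgfra.

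**Figure D1:**
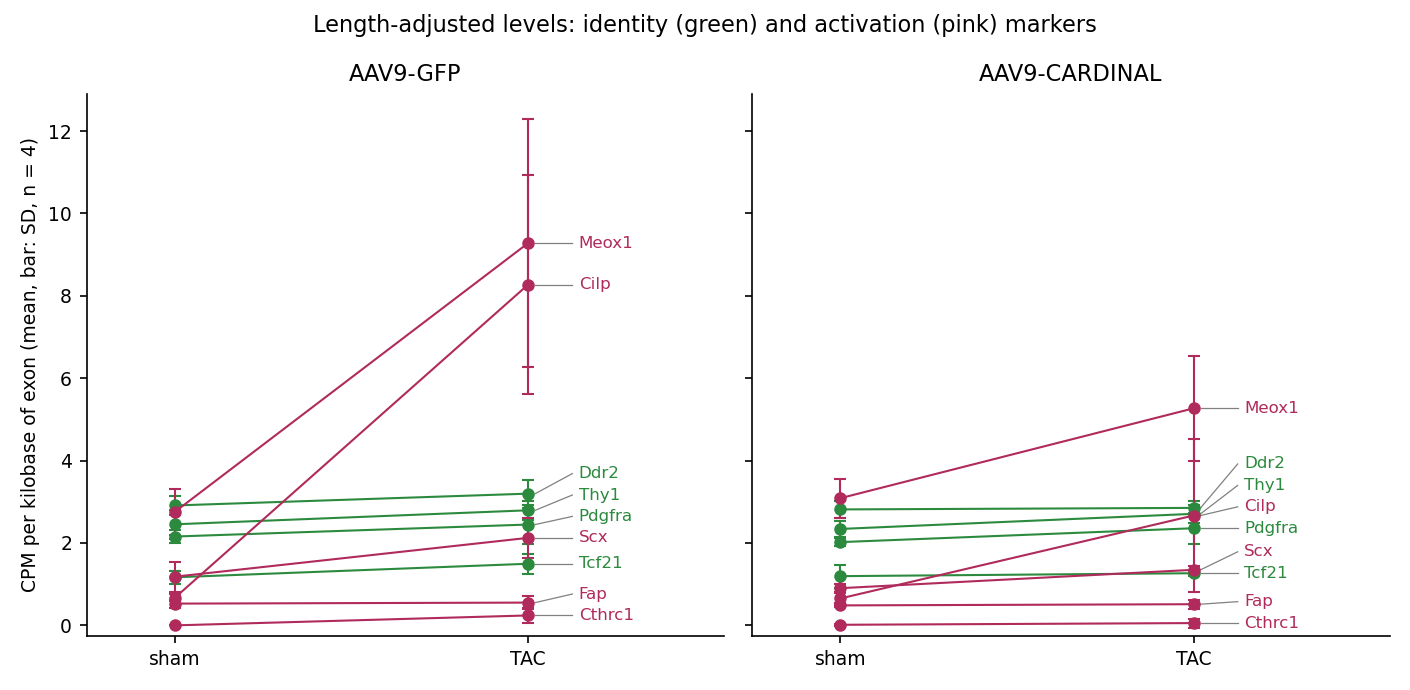
Mean level of each gene in CPM per kilobase of exonic length in sham and TAC hearts, with AAV9-GFP on the left and AAV9-CARDINAL on the right. Points are means of 4 mice and bars their SD. Identity genes are green and activation genes pink. Meox1 and Cilp climb from 2.76 and 0.673 in AAV9-GFP sham hearts to 9.28 and 8.28 in AAV9-GFP TAC hearts, past Ddr2 at 3.20, while the green lines stay nearly flat.

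Cilp had the largest TAC response of the 9 genes. Its level was 2.55, 3.17, 3.19 and 2.54 CPM in the AAV9-GFP sham mice, replicates 1 to 4. It was 25.2, 51.4, 30.9 and 33.2 CPM in AAV9-GFP TAC replicates 1, 3, 4 and 7. The groups were far from overlapping, and the means were 2.86 ± 0.363 and 35.2 ± 11.3 CPM (SD, n = 4). The log2 fold change was 3.62 (standard error 0.38, edgeR quasi-likelihood adjusted p = 2.7e-05), a 12.3-fold difference, and Cilp was number 21 from the top among 16857 tested genes. In AAV9-CARDINAL sham replicates 1 to 4 it was at 2.71, 2.23, 3.70 and 2.47 CPM. In AAV9-CARDINAL TAC replicates 1, 4, 5 and 6 it was at 23.1, 6.81, 7.26 and 8.15 CPM, so that replicate 1 was close to the AAV9-GFP TAC mice and the other 3 close to each other. TAC raised Cilp by 2.03 on the log2 scale in these hearts (standard error 0.39, edgeR adjusted p = 0.0078). Without replicate 1 the log2 fold change was 1.41 (edgeR adjusted p = 0.0049), so the fold became smaller by more than 1.5 times while the call stood.

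Meox1 was the other gene with a several-fold change. Its level in AAV9-GFP sham replicates 1 to 4 was 4.30, 7.06, 6.47 and 6.75 CPM. In AAV9-GFP TAC replicates 1, 3, 4 and 7 it was 10.6, 24.3, 23.3 and 24.5 CPM. All TAC mice were above all sham mice, but replicate 1 had less than the others, which lay close together. The log2 fold change was 1.75 (standard error 0.25, edgeR adjusted p = 2.4e-04), number 122 from the top. Meox1 in AAV9-CARDINAL sham replicates 1 to 4 was at 7.14, 5.95, 8.26 and 6.16 CPM. In AAV9-CARDINAL TAC replicates 1, 4, 5 and 6 it was at 9.69, 10.2, 15.9 and 11.1 CPM, again without overlap. There the log2 fold change was 0.77 with a 95% interval from 0.24 to 1.29, and it did not pass the threshold (edgeR adjusted p = 0.081). It passed without AAV9-GFP TAC replicate 1 (0.77, edgeR adjusted p = 0.016), with only these 2 groups in the edgeR fit (adjusted p = 0.036) and in DESeq2 (adjusted p = 0.031). AAV9-GFP TAC replicate 1 is in neither group of this comparison, and the log2 fold change stayed at 0.77 without it.

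Scx moved less than Cilp and Meox1. The AAV9-GFP sham mice, replicates 1 to 4, held 3.22, 2.21, 2.60 and 1.47 CPM. The TAC mice with AAV9-GFP, in the order of replicates 1, 3, 4 and 7, held 4.54, 5.50, 3.81 and 3.22 CPM, so the lowest TAC mouse and the highest sham mouse were almost at the same level. For Scx the estimate was 0.84 ± 0.20 (log2 fold change and standard error), with an edgeR adjusted p of 0.0080. In AAV9-CARDINAL hearts the level was 1.94, 1.53, 2.02 and 1.75 CPM after sham surgery and 2.92, 2.82, 2.47 and 2.62 CPM after TAC. The mice did not overlap, but the log2 fold change of 0.58 (95% interval 0.13 to 1.03) missed the threshold (edgeR adjusted p = 0.12), which it passed when the edgeR fit held only these 2 groups (adjusted p = 0.031).

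Fap did not show a TAC difference with either virus. It was between 2.21 and 3.52 CPM in AAV9-GFP sham mice and between 1.83 and 3.99 CPM in AAV9-GFP TAC mice, whose range held the sham range. Its log2 fold change was 0.07 with a 95% interval from -0.38 to 0.51 (edgeR adjusted p = 0.88). In AAV9-CARDINAL hearts Fap was between 2.47 and 3.11 CPM after sham surgery and between 2.26 and 3.63 CPM after TAC, with a log2 fold change of 0.08 (95% interval -0.38 to 0.54, edgeR adjusted p = 0.89). The sign of both estimates turned when single mice were left out, and the intervals leave room for changes of up to 0.51 and 0.54 on the log2 scale.

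Cthrc1 was close to the limit of detection and did not pass the filter on low counts, so it has no test in the main fit. After sham surgery with AAV9-GFP none of the 4 mice had a count, and there were 5, 19, 8 and 4 counts in AAV9-GFP TAC replicates 1, 3, 4 and 7. All 4 TAC mice were thus above the floor of 3 counts, with levels of 0.214, 0.797, 0.350 and 0.174 CPM. Their mean of 0.384 CPM was at least 2.65-fold higher than the floor of 3 counts per sham library, 0.145 CPM. In AAV9-CARDINAL hearts, counts appeared in 1 sham mouse (2 counts in replicate 1) and in 1 TAC mouse (8 counts, 0.354 CPM, in replicate 1), and the other 6 mice had 0. With no filter on low counts, edgeR gave Cthrc1 an adjusted p of 0.043 for TAC with AAV9-GFP and 0.65 with AAV9-CARDINAL. DESeq2 gave an unadjusted p of 0.0070 for the former and no adjusted p. In the whole table, 205 genes had 0 counts in at least 1 mouse and at least 10 counts in every other mouse, and whether the 0 counts of Cthrc1 are an absence of reads was not tested.

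**Figure D2:**
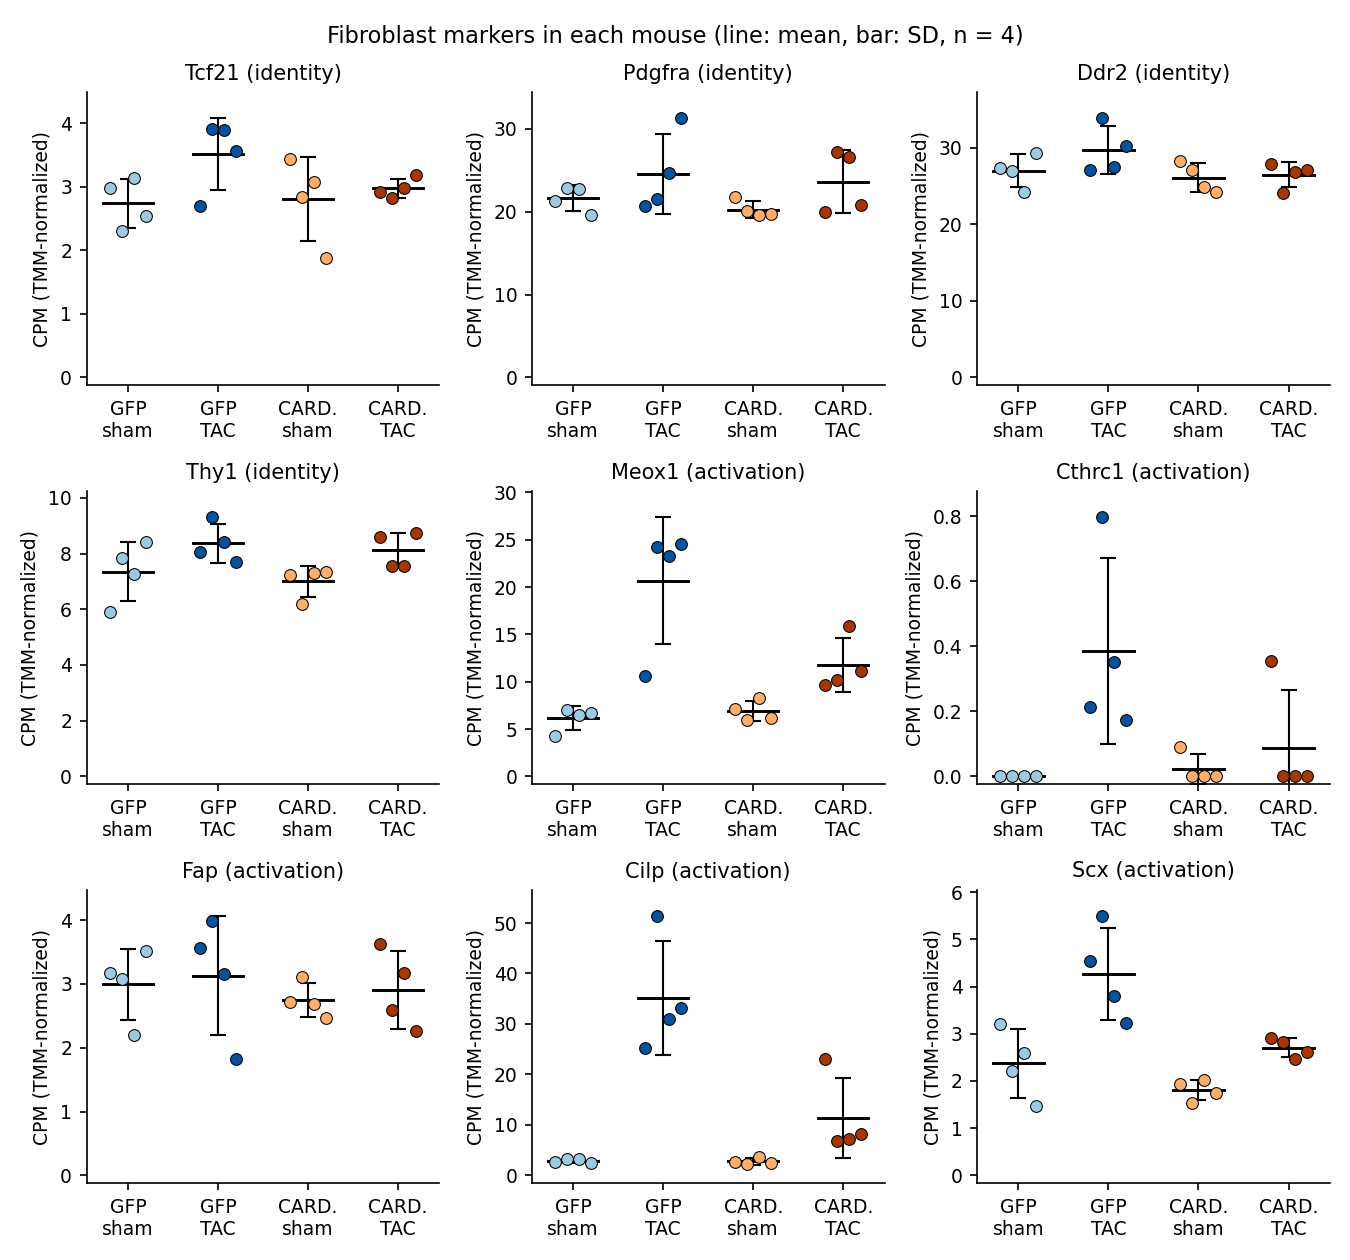
Level of each of the 9 genes in CPM in each mouse, 1 panel per gene with its own axis. Each dot is a mouse, ordered by replicate number within its group (CARD. stands for AAV9-CARDINAL), the line is the mean and the bar the SD of 4 mice. Cilp and Meox1 separate the AAV9-GFP TAC mice (25.2 to 51.4 and 10.6 to 24.5 CPM) from the sham mice, and AAV9-CARDINAL TAC replicate 1 lies at 23.1 CPM of Cilp above the other mice of its group.

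The 4 identity genes stayed within narrow ranges. Tcf21 was at 2.98, 2.31, 3.14 and 2.54 CPM in AAV9-GFP sham replicates 1 to 4 and at 2.70, 3.90, 3.89 and 3.57 CPM in AAV9-GFP TAC replicates 1, 3, 4 and 7. Of these TAC mice, 3 were above every sham mouse and replicate 1 was not. For Tcf21 the log2 fold change was 0.36 with a 95% interval from 0.02 to 0.70 (edgeR adjusted p = 0.14). Without AAV9-GFP TAC replicate 1 it was 0.47 and passed the threshold (edgeR adjusted p = 0.049). In AAV9-CARDINAL hearts Tcf21 was at 3.43, 2.84, 3.08 and 1.88 CPM after sham surgery and at 2.92, 2.82, 2.98 and 3.18 CPM after TAC, with overlap, and the log2 fold change was 0.07 (edgeR adjusted p = 0.87).

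Pdgfra was between 19.6 and 22.8 CPM in AAV9-GFP sham mice and between 20.7 and 31.3 CPM in AAV9-GFP TAC mice, where replicate 7 was the highest. In AAV9-CARDINAL hearts it was between 19.6 and 21.7 CPM after sham surgery, and after TAC at 20.0 and 20.8 CPM in 2 mice and at 27.2 and 26.6 CPM in the other 2. The log2 fold changes were 0.18 (95% interval -0.08 to 0.45) and 0.22 (95% interval -0.05 to 0.49), with edgeR adjusted p of 0.37 and 0.33. Ddr2 varied least, with a range of 24.1 to 33.9 CPM over all 16 mice. Its TAC change was 0.14 on the log2 scale with AAV9-GFP (95% interval -0.04 to 0.31, edgeR adjusted p = 0.29) and 0.02 with AAV9-CARDINAL (95% interval -0.16 to 0.19, edgeR adjusted p = 0.94). Thy1 was between 5.91 and 8.41 CPM in AAV9-GFP sham mice and between 7.70 and 9.31 CPM in AAV9-GFP TAC mice, which overlapped, with a log2 fold change of 0.19 (95% interval -0.03 to 0.41, edgeR adjusted p = 0.24). With AAV9-CARDINAL it was between 6.18 and 7.33 CPM after sham surgery and between 7.54 and 8.75 CPM after TAC. These mice did not overlap, but the log2 fold change of 0.21 (95% interval -0.01 to 0.43) did not pass the threshold (edgeR adjusted p = 0.25).

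TAC with AAV9-GFP thus raised 3 of the 8 tested genes, all of them activation genes, and lowered 0 (0 also by DESeq2 and at an unadjusted p under 0.05). Over all tested genes 17.4% passed the threshold in this comparison, 8.49% upward and 8.92% downward. The mice did not overlap, with TAC higher, for Cilp, Meox1 and Scx, which was so for 10.1% of all tested genes. The median log2 fold change was 1.30 for the 4 tested activation genes and 0.19 for the 4 identity genes, beside 0.005 over all genes. In AAV9-CARDINAL hearts 1 of the 8 genes passed, Cilp, beside 6.48% of all tested genes, 3.10% upward and 3.38% downward. There TAC was higher without overlap for Cilp, Meox1, Scx and Thy1, beside 6.51% of all tested genes. Medians were 0.67 for activation and 0.14 for identity. In whole tissue, more cells of a type and more RNA per cell cannot be told apart.

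The mean log2 CPM of the 5 activation genes was 0.72 ± 0.06 in AAV9-GFP sham mice and 2.38 ± 0.39 in AAV9-GFP TAC mice (SD, n = 4), with prior count 2. The mean of the 4 identity genes was 3.39 ± 0.03 and 3.60 ± 0.13 in the same groups. Activation minus identity was therefore -2.67 ± 0.08 on the log2 scale after sham surgery and -1.22 ± 0.35 after TAC, and the ranges did not meet (-2.77 to -2.58 and -1.59 to -0.76). In AAV9-CARDINAL hearts this difference was -2.64 ± 0.09 after sham surgery and -2.08 ± 0.44 after TAC. AAV9-CARDINAL TAC replicate 1 was at -1.43, within the range of the AAV9-GFP TAC mice, and the other 3 lay between -2.34 and -2.21, between the ranges of the sham mice and of the AAV9-GFP TAC mice. The means are not scaled by exonic length, and the prior count sets the value of Cthrc1 where it had 0 counts. The size of each difference is therefore not a difference in level between the 2 sets of markers. These summaries describe the mice and carry no test.

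**Figure D3:**
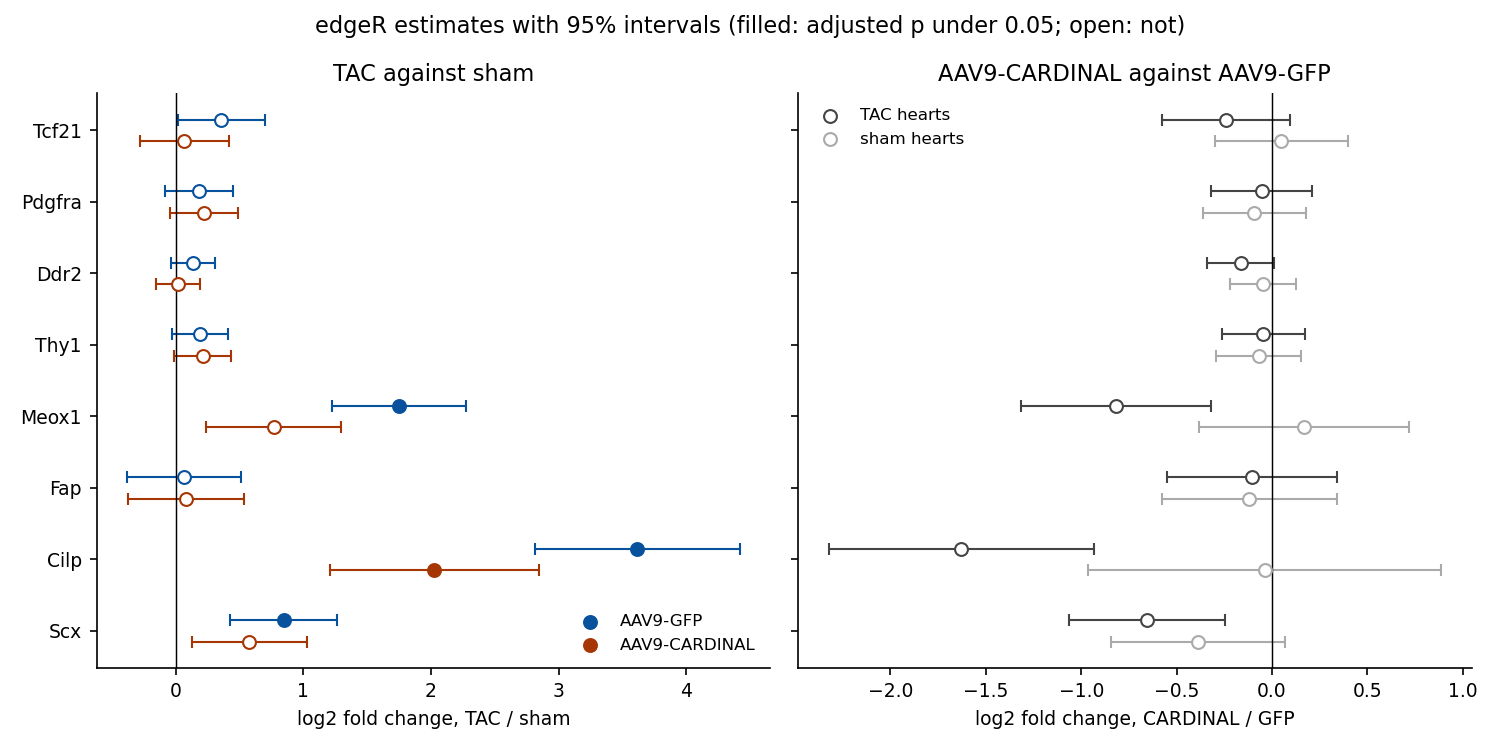
Log2 fold changes of the 8 tested genes from edgeR, TAC against sham on the left for each virus and AAV9-CARDINAL against AAV9-GFP on the right for TAC and sham hearts. Bars are 95% intervals and filled points have an adjusted p under 0.05. On the left Cilp (3.62 and 2.03), Meox1 (1.75) and Scx (0.84) are filled, and on the right no point is filled, with Cilp in TAC hearts farthest from 0 at -1.63.

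The comparison of AAV9-CARDINAL with AAV9-GFP asks whether these genes differ with extra Cardinal in cardiomyocytes, after TAC and after sham surgery. In TAC hearts all 8 tested genes had lower estimates with AAV9-CARDINAL, beside a median log2 fold change of -0.01 over all genes. The estimates of Pdgfra, Thy1 and Fap changed sign when single mice were left out. Of the 8 genes 0 passed the edgeR threshold, beside 0.101% of all tested genes. An unadjusted p under 0.05 was found for 3 of them (Cilp, Meox1 and Scx), beside 2528 of all 16857 tested genes. DESeq2 called 2 (Cilp and Meox1), beside 447 genes over the whole table. Cardiomyocyte markers, given with the other cell types, had higher estimates in the same comparison (7 genes, median log2 fold change 0.23), and their part in it was not tested. The 2 comparisons of TAC with sham and this one share mice, so that the values are not independent of those above. Cilp was at 35.2 ± 11.3 CPM with AAV9-GFP and at 11.3 ± 7.89 CPM with AAV9-CARDINAL (SD, n = 4). No AAV9-CARDINAL mouse reached an AAV9-GFP mouse in these TAC hearts, but the nearest pair, at 23.1 and 25.2 CPM, were close. The log2 fold change was -1.63 (95% interval -2.32 to -0.93, edgeR adjusted p = 0.058). Without AAV9-CARDINAL TAC replicate 1 it was -2.24 and passed the threshold (edgeR adjusted p = 1.2e-04). It also passed, at -1.76, without AAV9-GFP TAC replicate 1 (edgeR adjusted p = 0.046), and at -1.63 in DESeq2 (adjusted p = 4.4e-04).

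Meox1 in TAC hearts was at 20.7 ± 6.72 CPM with AAV9-GFP and at 11.7 ± 2.86 CPM with AAV9-CARDINAL (SD, n = 4). The groups overlapped only through AAV9-GFP TAC replicate 1, whose 10.6 CPM lay among the AAV9-CARDINAL mice. The log2 fold change was -0.82 (95% interval -1.31 to -0.32, edgeR adjusted p = 0.12). Without that mouse it was -1.03 and passed (edgeR adjusted p = 0.025), as it did in DESeq2 at -0.82 (adjusted p = 0.031). Scx was at 4.27 ± 0.983 CPM with AAV9-GFP and 2.71 ± 0.202 CPM with AAV9-CARDINAL, without overlap, and its log2 fold change was -0.66 (95% interval -1.07 to -0.24, edgeR adjusted p = 0.13). Lower levels without overlap, as in Cilp and Scx, were found for 3.19% of all tested genes. Fap, at -0.11, and the 4 identity genes, between -0.24 for Tcf21 and -0.04 for Thy1, had 95% intervals that held 0. The median log2 fold change was -0.74 for the activation genes tested and -0.11 for the identity genes, beside -0.01 over all genes.

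In sham hearts the viruses differed in 0 of the 8 genes, beside 0.0119% of all tested genes, and each had an edgeR adjusted p of 1. An unadjusted p under 0.05 was found for 0 of them, beside 437 of all 16857 tested genes. DESeq2 called 0, beside 5 genes over the whole table. Estimates ran from -0.39 for Scx (95% interval -0.84 to 0.07) to 0.17 for Meox1 (95% interval -0.38 to 0.72), and the mice overlapped in all 8 genes. Mice did not overlap in 1.20% of all tested genes with AAV9-CARDINAL higher and in 1.16% with it lower. Cilp was at 2.86 ± 0.363 CPM with AAV9-GFP and at 2.78 ± 0.646 CPM with AAV9-CARDINAL (SD, n = 4).

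Whether TAC acted differently under the 2 viruses was tested as the interaction of virus and surgery. Of the 8 genes 0 passed in edgeR, beside 0.0119% of all tested genes. An unadjusted p under 0.05 was found for 2 (Cilp and Meox1), beside 1722 of all 16857 tested genes. DESeq2 called 0, beside 145 genes over the whole table. The difference in response was -1.59 on the log2 scale for Cilp (95% interval -2.75 to -0.44, edgeR adjusted p = 0.36) and -0.98 for Meox1 (95% interval -1.73 to -0.24, edgeR adjusted p = 0.36). For Scx it was -0.27 (95% interval -0.88 to 0.35). Without AAV9-CARDINAL TAC replicate 1, the difference for Cilp was -2.21 and passed the threshold (edgeR adjusted p = 0.0092). So the calls of Meox1 and Scx with AAV9-GFP and not with AAV9-CARDINAL do not by themselves show a difference between the viruses.

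The 2 TAC mice numbered 1 lay close to each other. AAV9-GFP TAC replicate 1 had 25.2 CPM of Cilp and 10.6 CPM of Meox1, and AAV9-CARDINAL TAC replicate 1 had 23.1 and 9.69 CPM, so these mice were nearly alike in both genes although their viruses differed. The former was the lowest of its group in both genes, and the latter was the highest of its group in Cilp and the lowest in Meox1. In AAV9-GFP TAC hearts the mouse farthest from the rest in Cilp was replicate 3, at 51.4 CPM. With the mice numbered 1 left out of every group, a choice made after the data were seen, the vector difference in TAC hearts was -2.38 for Cilp (edgeR adjusted p = 2.7e-04) and -0.95 for Meox1 (edgeR adjusted p = 0.013), and the interaction for Cilp was -2.30 (edgeR adjusted p = 0.036).

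**Figure D4:**
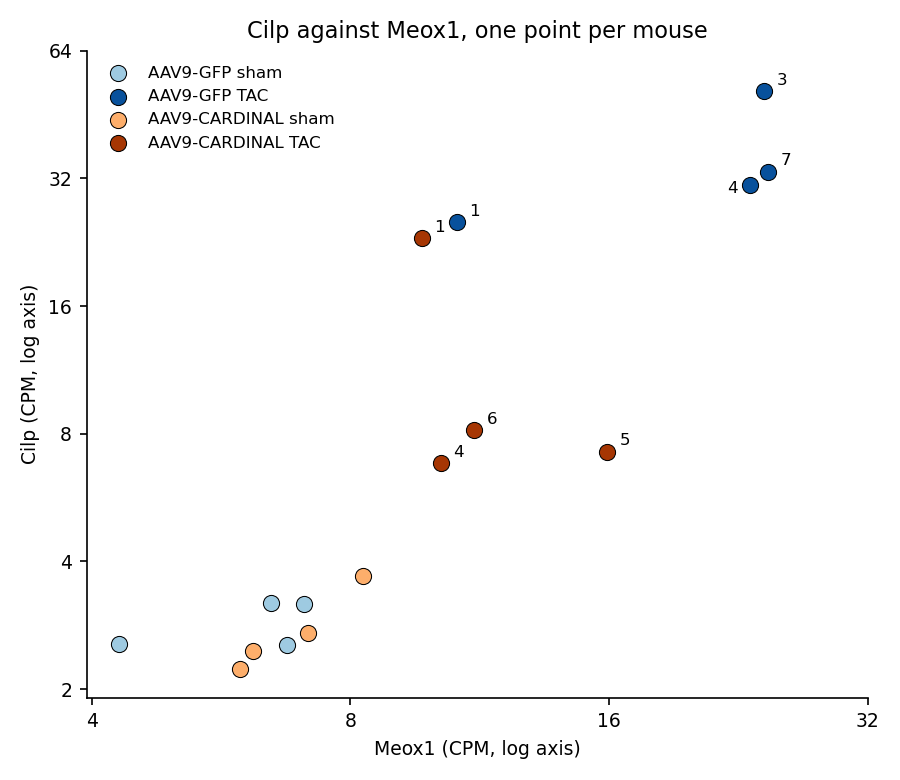
Cilp against Meox1 in CPM on log axes, 1 point per mouse, with replicate numbers beside the TAC mice. AAV9-GFP TAC replicates 3, 4 and 7 lie together at 23.3 to 24.5 CPM of Meox1, the 2 TAC mice numbered 1 lie side by side at 10.6 and 9.69 CPM of Meox1 and 25.2 and 23.1 CPM of Cilp, and the other 3 AAV9-CARDINAL TAC mice have 6.81 to 8.15 CPM of Cilp.

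Genes with the most similar pattern over the 16 mice were found by the root mean square difference of mean-centred log2 CPM. Ltbp2, which encodes a matrix protein that binds microfibrils, was nearest to Cilp (0.28, where the SD of Cilp itself was 1.54), followed by Gm17228 (0.36). Emp1 (0.27) and Dbn1 (0.28) were nearest to Meox1, whose SD was 0.75. Apod and Tpm2 (both 0.26) were nearest to Scx, whose SD was 0.50. For Tcf21 these were Lcmt2 (0.13) and Calcrl (0.15), for Pdgfra Eif4ebp1 (0.09) and Adarb1 (0.11), for Ddr2 Epb41l2 and Gm5822 (both 0.06), for Thy1 Gm12403 (0.07) and Sh3bgr (0.08), and for Fap Nab2 and Lrrc27 (both 0.19). For these 5 genes the differences of 0.06 to 0.19 stand beside SDs of 0.12 to 0.28 and were a larger share of the SD than for Cilp and Meox1. All these points share the same 16 libraries.

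Other genes of activated fibroblasts also rose. Of 18 tested among 19 listed, 13 rose after TAC with AAV9-GFP and 0 fell (0 also by DESeq2 and at an unadjusted p under 0.05), with a median log2 fold change of 1.48. Over all tested genes 8.49% rose in that comparison. With AAV9-CARDINAL 7 rose (3.10% over all tested genes) and the median of the 18 was 0.80. Without AAV9-CARDINAL TAC replicate 1 these were 7 and 0.69, and without AAV9-CARDINAL sham replicate 2 or 4 the count in edgeR was 3 or 4. Over all genes and in either direction, such fits called between 384 and 1436, beside 1092 in the main fit. Ltbp2 had the largest change, at 1.04, 1.15, 1.42 and 1.17 CPM in AAV9-GFP sham replicates 1 to 4 and 8.87, 18.0, 9.80 and 9.57 CPM in AAV9-GFP TAC replicates 1, 3, 4 and 7 (log2 fold change 3.27, edgeR adjusted p = 8.3e-05). As with Cilp, Ltbp2 in AAV9-CARDINAL TAC hearts was high in replicate 1 (8.41 CPM) and between 2.21 and 2.89 CPM in the other 3. The log2 fold change of Ltbp2 in AAV9-CARDINAL hearts was 1.83 (edgeR adjusted p = 0.021) with replicate 1 and 1.19 (adjusted p = 0.024) without it. Tnc, the matricellular protein tenascin C, rose by 2.94 with AAV9-GFP (edgeR adjusted p = 7.8e-05) and by 1.85 with AAV9-CARDINAL (edgeR adjusted p = 0.0081), or 1.70 without replicate 1 (adjusted p = 0.015).

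Postn, the periostin gene and a common marker of activated fibroblasts, was between 22.3 and 23.9 CPM in AAV9-GFP sham mice and between 134 and 222 CPM in AAV9-GFP TAC mice (log2 fold change 2.86, edgeR adjusted p = 2.0e-05). AAV9-CARDINAL TAC replicate 1 held 114.9 CPM of Postn and the other 3 held 38.2 to 51.2 CPM. Postn rose by 1.37 in AAV9-CARDINAL hearts (edgeR adjusted p = 0.011), and by 0.88 without replicate 1 (adjusted p = 0.0049). Acta2, the smooth muscle actin of myofibroblasts and of vessel walls, did not pass, with a log2 fold change of -0.69 (edgeR adjusted p = 0.31), and AAV9-GFP sham replicate 4 held 219.2 CPM of it against 39.7 to 49.1 CPM in the other 3. Without that mouse the direction turned, at 0.30 (edgeR adjusted p = 0.26). Acta2 falls outside the rule for named genes and was chosen after its values were seen. Among the 18 genes 1 passed between the viruses in TAC hearts in edgeR, beside 0.101% of all tested genes. At an unadjusted p under 0.05, 11 were lower with AAV9-CARDINAL, and DESeq2 called 5 lower. In either direction, 2528 of all 16857 tested genes had such a p, and DESeq2 called 447 genes. Of the 18, edgeR called 7 lower without AAV9-CARDINAL TAC replicate 1, and 3 without AAV9-GFP TAC replicate 1 or 4. Over all genes and in either direction, fits that left out 1 mouse called between 0 and 535, beside 17 in the main fit. In the interaction 0 of the 18 passed in edgeR, 7 had a lower estimate at an unadjusted p under 0.05, and DESeq2 called 3. Over all genes, in either direction, 1722 had such a p and DESeq2 called 145. In the interaction, too, leaving out AAV9-CARDINAL TAC replicate 1 raised the edgeR count of the 18, to 5. The count over all genes also rose, from 2 to 79. Thbs4, the matricellular protein thrombospondin 4, was between 14.0 and 27.4 CPM with AAV9-GFP and between 3.38 and 9.87 CPM with AAV9-CARDINAL (log2 fold change -1.67, edgeR adjusted p = 0.043). Its call was lost in 13 of the 16 fits that left out a mouse, with the adjusted p reaching 0.18.

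Other genes of resting fibroblasts were mixed. Of 14 tested, 6 rose after TAC with AAV9-GFP (Pi16, Cd248, Smoc2, Mfap5, Vim and Gli1) and 2 fell (Dpep1 and Clec3b), with a median log2 fold change of 0.36. Over all tested genes 8.49% rose and 8.92% fell. With AAV9-CARDINAL 3 rose (Pi16, Mfap5 and Vim) and 1 fell (Clec3b), with a median of 0.09, or -0.03 without AAV9-CARDINAL TAC replicate 1. There 3.10% of all tested genes rose and 3.38% fell. Mfap5, a protein of microfibrils, led with 9.03 to 12.2 CPM in AAV9-GFP sham mice and 24.3, 56.6, 41.9 and 58.0 CPM in AAV9-GFP TAC replicates 1, 3, 4 and 7 (log2 fold change 2.03, edgeR adjusted p = 4.2e-05). In Mfap5, too, replicate 1 was the lowest of these 4. Cd248, which encodes the surface protein endosialin, rose by 1.20 (edgeR adjusted p = 4.4e-04) and Gli1, a transcription factor of Hedgehog signaling, by 1.11 (edgeR adjusted p = 0.0090).

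Of 22 tested partners and relatives of the 9 genes, 7 rose after TAC with AAV9-GFP and 0 fell (0 also by DESeq2 and at an unadjusted p under 0.05), with a median log2 fold change of 0.32. They were Tgfb1, Tgfb2, Tgfb3 and the receptor gene Tgfbr2, Pdgfrb, Ddr1 and Tcf3. Over all tested genes 8.49% rose with AAV9-GFP. Among the receptors, the relatives passed and the identity genes themselves did not, but the difference between them was not tested. Pdgfrb, the sister gene of Pdgfra, changed by 0.55 (edgeR adjusted p = 0.0011) and Ddr1, the sister of Ddr2, by 0.54 (edgeR adjusted p = 0.0028). Tgfb2, a ligand of the TGF-β family, was between 8.47 and 11.5 CPM in sham mice and between 13.7 and 25.8 CPM in TAC mice (log2 fold change 0.94, edgeR adjusted p = 0.0032). With AAV9-CARDINAL 0 of the 22 rose (3 at an unadjusted p under 0.05, 0 in DESeq2) and 1 fell, the PDGF ligand gene Pdgfa (log2 fold change -0.50, edgeR adjusted p = 0.043), which was named after its values were seen and lost its call in most fits that left out a mouse. Over all tested genes 3.10% rose and 3.38% fell with AAV9-CARDINAL. Without AAV9-GFP TAC replicate 7, 4 of the 22 rose with AAV9-GFP. With 1 mouse left out, between 1962 and 3072 of all genes passed in that comparison in either direction, beside 2934 in the main fit. In TAC hearts 0 of the 22 partners and 0 of the 14 resting genes passed between the viruses in edgeR. At an unadjusted p under 0.05, 5 of the partners and 8 of the resting genes were lower with AAV9-CARDINAL, and DESeq2 called 0 and 4 lower. In either direction, 2528 of all 16857 tested genes had such a p, and DESeq2 called 447 genes. Of the resting genes edgeR called 4 lower without AAV9-CARDINAL TAC replicate 1, 3 without AAV9-GFP TAC replicate 1 and 1 without AAV9-GFP TAC replicate 4. Such fits called between 0 and 535 of all genes in either direction.

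**Figure D5:**
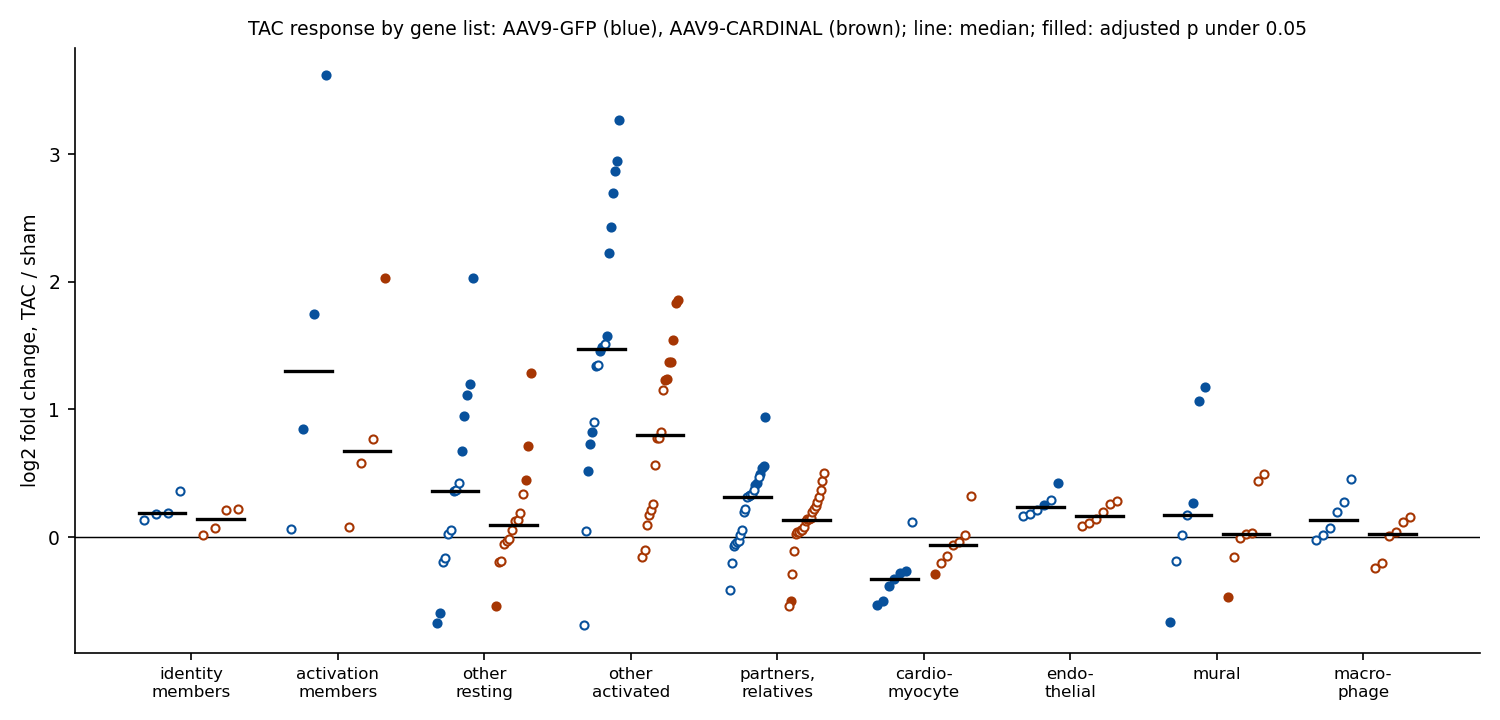
Log2 fold change of TAC against sham for each tested gene of the lists, AAV9-GFP in blue and AAV9-CARDINAL in brown. Each point is a gene, filled where the edgeR adjusted p was under 0.05, and the line is the median of the list. The activated genes have medians of 1.48 and 0.80. The cardiomyocyte list has a median of -0.32 with AAV9-GFP, and its highest gene is at 0.12.

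Markers of other cells in the tissue are given beside these results. The summed level of 7 cardiomyocyte genes was 43810 to 46517 CPM in AAV9-GFP sham mice and 33298 to 39949 CPM in AAV9-GFP TAC mice. Of the 7 genes 6 fell, beside 8.92% of all tested genes. Myh6, the adult myosin heavy chain, was the most abundant and fell by 0.32 in log2 terms (edgeR, adjusted p = 0.0042). In AAV9-CARDINAL hearts the sum was 42070 to 46387 CPM after sham surgery and 39915 to 44063 CPM after TAC. There 1 of the 7 genes fell, beside 3.38% of all tested genes. Between the viruses in TAC hearts 0 of these 7 genes passed in edgeR, with a median log2 fold change of 0.23. At an unadjusted p under 0.05, 6 were higher with AAV9-CARDINAL, DESeq2 called 5, and without AAV9-CARDINAL TAC replicate 1 edgeR called 3. With all mice and in either direction, 2528 of all 16857 tested genes had such a p, and DESeq2 called 447 genes. With 1 mouse left out, edgeR called between 0 and 535 of all genes in that comparison. Of 6 endothelial genes, 2 rose with AAV9-GFP, among them Cdh5 by 0.25 (edgeR adjusted p = 0.011), beside 8.49% of all tested genes. The sum of the 6 was 446.8 to 546 CPM after sham surgery and 521 to 635.1 CPM after TAC. The part of these shifts in the fibroblast results was not tested.

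The 7 mural genes held 3 that rose and 1 that fell with AAV9-GFP, beside 8.49% and 8.92% of all tested genes. Their sums were 912.6 to 994.9 CPM after sham surgery and 822.4 to 870.7 CPM after TAC. The lower sum rests on the gene that fell, Abcc9, named after its values were seen. It was at 340.9 to 382.6 CPM after sham surgery and 203.4 to 253.7 CPM after TAC. Which cells of the tissue its RNA came from was not tested, so the sum is not read as a change in mural cells. Rgs5, the most abundant, had a log2 fold change of 0.01 (edgeR adjusted p = 0.89). Of 6 macrophage genes 0 passed (1 at an unadjusted p under 0.05, 0 in DESeq2), and C1qa, the most abundant, was at 0.20 (edgeR adjusted p = 0.16). The 3 tested epicardial genes had 0 calls in edgeR (0 at an unadjusted p under 0.05, 0 in DESeq2), with Wt1 at -0.31 (edgeR adjusted p = 0.36). Thy1 is also a T cell gene, and the summed level of 6 T cell genes was between 0.779 and 2.098 CPM, with Cd4, the highest, at a log2 fold change of 0.46 (edgeR adjusted p = 0.25).

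Scx and Cilp are also known from tendon and cartilage. Sox9, a transcription factor of cartilage, was between 0.636 and 1.68 CPM in AAV9-GFP sham mice and between 4.33 and 7.92 CPM in AAV9-GFP TAC mice (log2 fold change 2.34, edgeR adjusted p = 8.1e-05), and it rose by 1.25 with AAV9-CARDINAL (edgeR adjusted p = 0.020). The latter call was lost without AAV9-CARDINAL sham replicate 2 or 4 or TAC replicate 5, with edgeR adjusted p of up to 0.073. The tendon gene Tnmd and Kera had 0 counts in all 16 mice, and Acan and Col2a1 did not pass the filter on low counts.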

How the data were processed

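Poly(A)-selected RNA was sequenced as single-end 50-base reads. The authors deposited 1 table of raw counts per gene, with a column for each of 16 mice and no normalization. The submitters' processing notes name FastQC, HISAT2 2.1.0, edgeR 3.26.1 and GRCm38. The counting program, the annotation and the use of strand are not given in the sources used here. Of 55573 genes, 55480 were named with GENCODE M21 and 93 were not.

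Counts were fitted with edgeR 4.0.16 in R 4.3.3 (TMM, expression filter for the 4 groups, 16857 genes, quasi-likelihood test, 4 group means over all 16 mice), with Benjamini-Hochberg adjustment over all genes tested and a threshold of 0.05. All intervals are 95%. The 9 genes and the lists were chosen with earlier results of these data known. The text names the 9 genes, the 3 genes of each related list with the largest change after TAC with AAV9-GFP among those past the threshold, those past it between viruses, the most abundant gene of each cell type list (1 list is not reported here) and the 2 most similar genes of each member (at least 1 CPM). Alternatives were DESeq2 1.42.0, other normalization, filters, groups in the fit, spread estimate, replicate block and prior count, mitochondrial genes left out, and each mouse left out. No 2 libraries of a group agreed within sampling noise (chi-square per degree of freedom 5.1 to 14.9), so none was counted as deposited again. This does not show that they are separate hearts. The fit was tested on simulated data. Figures were drawn with matplotlib 3.10.9.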

Additional observations from a re-analysis of the deposited data

Results flagged for a closer look

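In groups of 4 mice, a value was singled out where its gap to the nearest mouse passed Dixon's 95% value for groups of that size. This was so in 6 of 40 groups of values looked at, where chance gives about 2, but 2 of the 6 are Cthrc1 groups with 0 in 3 mice, in which any count passes. Meox1 was at 10.63 CPM in AAV9-GFP TAC replicate 1 and between 23.32 and 24.52 CPM in the other 3. In AAV9-CARDINAL TAC replicate 1 Cilp stood at 23.14 CPM, and it was between 6.814 and 8.149 CPM in the other 3. Cthrc1 was at 0.354 CPM in the same mouse and at 0 in the rest of its group, and in AAV9-CARDINAL sham replicate 1 it was at 0.09037 CPM, which is 2 counts and under the floor, with 0 in the rest. In AAV9-CARDINAL sham replicate 2 Thy1 stood at 6.181 CPM, and it was between 7.23 and 7.331 CPM in the other 3. The total of AAV9-CARDINAL sham replicate 4 was 16441997 counts, below the 21603910 to 21786630 counts of its group.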

How the results depend on the processing

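The cause of each change given here was not tested. With each mouse left out in turn, genes past the threshold were between 384 and 1436 for TAC with AAV9-CARDINAL (main value 1092), 0 and 535 for the viruses in TAC hearts (17), 1 and 3 in sham hearts (2) and 2 and 79 for the interaction (2). Of the 9 genes, 1 to 2, 0 to 2, 0 to 0 and 0 to 1 passed in these comparisons, and 3 to 4 for TAC with AAV9-GFP, where Cilp, Meox1 and Scx kept their calls in every setting run. Small estimates changed sign: Fap between -0.07 and 0.257 for TAC with AAV9-GFP; with AAV9-CARDINAL Tcf21 between -0.067 and 0.179, Ddr2 between -0.016 and 0.06 and Fap between -0.042 and 0.187; in TAC hearts Pdgfra between -0.127 and 0.086, Thy1 between -0.081 and 0.014 and Fap between -0.29 and 0.036; in sham hearts Tcf21 between -0.061 and 0.185, Thy1 between -0.161 and 0.002 and Cilp between -0.212 and 0.059; for the interaction Pdgfra between -0.036 and 0.177, Thy1 between -0.046 and 0.116 and Fap between -0.173 and 0.153.

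Other settings that moved a count or a sign were as follows. DESeq2 called 2 of the 9 genes for TAC with AAV9-CARDINAL and 2 in TAC hearts between viruses, with 447, 5 and 145 genes in TAC hearts, in sham hearts and for the interaction. Without a filter on low counts, 615 genes passed for TAC with AAV9-CARDINAL and 3 in TAC hearts between viruses. The latter count was 30 with at least 1 CPM in 4 mice, 30 without mitochondrial genes and 3 with only the 2 groups compared, where 3 of the 9 genes passed for TAC with AAV9-CARDINAL. Mice numbered 1 deviated together in all 4 comparisons of 2 groups (correlations of 0.103 to 0.211, each highest with its own number). For the other numbers the correlations were -0.04 to 0.09. Of these, only number 4 between the viruses in sham hearts was highest with its own number (0.09). The numbers were therefore not taken to pair the mice. With the number as a replicate block, 31 genes and 0 of the 9 passed for TAC with AAV9-CARDINAL (Cilp at 2.58, edgeR adjusted p = 0.052), 0 genes in TAC hearts, 1 in sham hearts and 1 for the interaction, Pdgfra in TAC hearts turned to 0.076 and Fap in the interaction to -0.105. With the mice numbered 1 left out, chosen after the data were seen, 2, 2, 0 and 1 of the 9 genes passed for TAC with AAV9-CARDINAL, in TAC hearts, in sham hearts and for the interaction, with 296, 5 and 15 genes in the last 3, and Fap with AAV9-CARDINAL turned to -0.051, Tcf21 in sham hearts to -0.014 and Fap in the interaction to -0.084. With prior count 0.5, the mean of the activation genes was 0.295 and 0.343 in AAV9-GFP and AAV9-CARDINAL sham mice, and activation minus identity -3.083 and -2.987. Scaling by other size factors or without mitochondrial genes changed no call of the 9 genes. Cthrc1 had at most 19 counts in a mouse, and Fap, Scx and Tcf21 rest on 27 to 131 counts per mouse. Counts and medians of the related lists without single mice, given in the report, were added after the data were seen.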
